A study of Mus musculus with 7 samples.

Results

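The genes described here encode the integrins, the laminin chains and a few further parts of the basement membrane. They were taken by symbol from a table of gene expression in the mouse uterus: every Itga and Itgb gene, every Lama, Lamb and Lamc gene, and Nid1, Nid2, Hspg2, Agrn and Dag1. The rule found 42 of the 24964 listed genes, made up of 19 integrins outside the leukocyte group, 7 leukocyte integrins (Itgal, Itgam, Itgax, Itgad, Itgae, Itgb2 and Itgb7), 11 laminin chains and 5 others. Whole uterus was sequenced from mice aged 12 weeks in diestrus, the luteal phase of the estrous cycle. In 3 libraries, numbered 1, 2 and 4, the genotype was Pgrcre/+, and these are called controls. In 4 libraries, numbered 1 to 4, it was Pgrcre/+Foxl2LsL/+, and these are called Foxl2LsL. Both groups therefore carry 1 Cre allele at the gene of the progesterone receptor, which is active in uterine epithelium, stroma and muscle. The labels do not say whether each library came from 1 animal or a pool, so the p-values measure only the spread between these libraries.

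A basement membrane is the thin sheet of matrix under epithelia and endothelia and around muscle and fat cells. Laminins are trimers of an alpha, a beta and a gamma chain that assemble at the cell surface, nidogen and perlecan join the laminin sheet to the collagen IV network, and integrins and dystroglycan anchor cells to it. Integrins are pairs of an alpha and a beta chain. Those with the alpha chains 3, 6 and 7 bind laminin, those with alpha 1, 2, 10 and 11 bind collagen, and those with alpha v, alpha 5 or alpha 8 bind an arginine-glycine-aspartate motif found in fibronectin and vitronectin. In the uterus these genes act in the endometrial epithelium, its vessels, the stroma and the myometrium.

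Promoters of a few members that differed between the groups are shown here because 3 of them belong to genes that were lower in Foxl2LsL (Nid1, Lamb1 and Hspg2) and 1 to a gene that was higher (Itgb5). Each is the 250 bases before the transcript start in RefSeq on GRCm38.p6, on the plus strand, 5′ to 3′. Capitals mark each GC box, GGGCGG or its reverse complement CCGCCC.
Nid1, chr13:13437352-13437601: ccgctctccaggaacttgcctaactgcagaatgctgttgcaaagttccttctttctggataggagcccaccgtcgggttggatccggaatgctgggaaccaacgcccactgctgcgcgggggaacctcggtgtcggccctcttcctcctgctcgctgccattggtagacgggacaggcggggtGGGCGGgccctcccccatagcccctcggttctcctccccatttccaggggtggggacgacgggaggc
Lamb1, chr12:31265043-31265292: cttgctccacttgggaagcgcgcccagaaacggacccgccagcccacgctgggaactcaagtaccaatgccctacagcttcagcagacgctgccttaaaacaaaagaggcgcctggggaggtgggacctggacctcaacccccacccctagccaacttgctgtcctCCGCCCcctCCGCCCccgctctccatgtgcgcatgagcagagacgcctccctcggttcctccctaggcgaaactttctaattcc
Hspg2, chr4:137468553-137468802: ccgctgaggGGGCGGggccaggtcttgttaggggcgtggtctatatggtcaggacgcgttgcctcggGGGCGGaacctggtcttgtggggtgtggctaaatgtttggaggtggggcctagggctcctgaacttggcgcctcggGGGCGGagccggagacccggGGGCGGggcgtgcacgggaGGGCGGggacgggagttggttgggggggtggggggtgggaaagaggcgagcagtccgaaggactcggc
Itgb5, chr16:33829415-33829664: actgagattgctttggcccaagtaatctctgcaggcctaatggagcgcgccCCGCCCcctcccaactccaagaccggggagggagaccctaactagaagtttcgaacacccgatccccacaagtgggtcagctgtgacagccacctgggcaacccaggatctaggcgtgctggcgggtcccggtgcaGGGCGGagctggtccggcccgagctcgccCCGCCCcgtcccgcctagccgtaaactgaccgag

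These windows held 1, 2, 5 and 3 GC boxes in Nid1, Lamb1, Hspg2 and Itgb5, and their GC content was 64.4%, 62.0%, 70.0% and 65.2%, where the median of all 32851 RefSeq promoter windows was 52.4%. RefSeq gave at least 1 window for 27 of the 42 genes, and 12 of these 27 held a GC box, against 32.7% of all windows. A gene was counted if any of its windows held the motif, while the share is over single windows, so these figures are not strictly alike. A forkhead core (TGTTTAC or GTAAACA) was in 0 of the 27 and in 3.17% of all windows, and TATAAA or its reverse complement was in 0 of the 27 and in 12.4% of all. Searches covered both strands, and the printed GC boxes did not overlap another of these motifs. Lamc1, Lamc3 and Itgb4, which also differed, had no window.

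Expression is given as FPKM, fragments scaled to gene length and library size, so that levels of different genes can be set side by side. The scaling stood for 47800000 to 67300000 fragments per library, and the 10 non-leukocyte members called below rested on at least 172 fragments in each library, so counting error, which is all that depth covers, was small beside the spread between libraries. Foxl2 itself, the gene named by the labels, was at 11.1, 19.3 and 12.9 FPKM in controls and at 12.7, 14.3, 14.8 and 17.2 FPKM in Foxl2LsL (log2 fold change 0.06, SE 0.18; limma, adjusted p 0.818). The groups overlapped, so the table does not check the labels, and every direction is given for the libraries as labelled. Of 13334 genes with a mean of at least 1 FPKM, 5409 (40.6%) passed an adjusted p of 0.05 (limma on log2(FPKM + 1), Benjamini-Hochberg over the tested genes), 16.7% higher and 23.9% lower. That split was 2224 higher and 3185 lower, against 2705 and 2851 after correction for GC content and length and 2678 and 2637 after median centring. In whole tissue, fewer cells of a type and less RNA per cell cannot be told apart.

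The uterine stroma genes Hoxa10 and Hoxa11 were present in every library and lower in Foxl2LsL without overlap, with log2 fold changes of -1.45 and -1.90 (limma, adjusted p 0.00835 and 0.00286). Marker lists of cell types were summed per library. Simple epithelium (2 of 7 tested markers higher) summed to 577 to 1236 FPKM in controls and 987 to 1521 in Foxl2LsL, and stroma (1 of 7 higher, 4 lower) to 795 to 1090 and 1297 to 1433. Dcn, the gene of decorin, was the stroma marker that was higher, at 367 to 467 FPKM in controls and 922 to 1034 FPKM in Foxl2LsL. The other 6 stroma markers summed to 395 to 722 and 376 to 416, with overlapping groups, a split chosen after the values were seen. Hoxa10, Hoxa11, Pdgfrb and Vim were the 4 lower ones. Lum, with a log2 fold change of 0.29, and Pdgfra, with -0.29, were not called. Smooth muscle (2 of 7 higher) summed to 885 to 1721 and 1555 to 1992, and endothelium (1 of 8 higher, 6 lower) to 158 to 201 and 118 to 134. Adipocyte markers (0 of 5 called) ranged from 0.173 to 73.1 in controls and from 2.21 to 202 in Foxl2LsL, with Adipoq, Cidec and Lep listed at 0 in at least 1 library. Mesothelium (1 of 5 lower) summed to 82.1 to 138 and 42.3 to 109, Schwann cell markers (2 of 3 higher) to 27.0 to 44.5 and 42.6 to 46.6, and skeletal muscle (2 of 3 lower) to 20.9 to 61.7 and 8.79 to 14.7, with Myh4 listed at 0 throughout and Myh1 in at least 1 library. Basal and stratified epithelium (0 of 1 called) stayed at 1.34 to 4.35 and 3.92 to 5.61, with Krt6a listed at 0 in at least 1 library. The part of cell composition in the results below was not tested.

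Of the 42 genes, 36 reached the filter of a mean of 1 FPKM and 11 of these passed the threshold, which is 30.6% against 40.6% of the tested genes. Higher in Foxl2LsL were Itgb4, Itgb6, Itgb5 and Itga2b among the non-leukocyte members and Itgam among the leukocyte integrins. Lower were Nid1, Lamc3, Lamc1, Lamb1, Hspg2 and Itga5. The groups did not overlap in 13 of the 36, against 47.6% of the tested genes: in 5 Foxl2LsL lay above (19.7% of the tested genes) and in 8 below (27.9%). Called differences of 2-fold or more concerned 4 members, Nid1, Lamc3, Itgb4 and Itgam, against 7.78% of the tested genes. The median log2 fold change of the 31 tested non-leukocyte members was -0.19, where that of the tested genes was -0.05. Laminin chains that passed were lower in 3 of 10 and higher in 0, and integrins outside the leukocyte group were higher in 4 of 16 and lower in 1. Over the tested genes 16.7% were higher and 23.9% lower, and nothing is read from these small counts about either set.

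**Figure D1:**
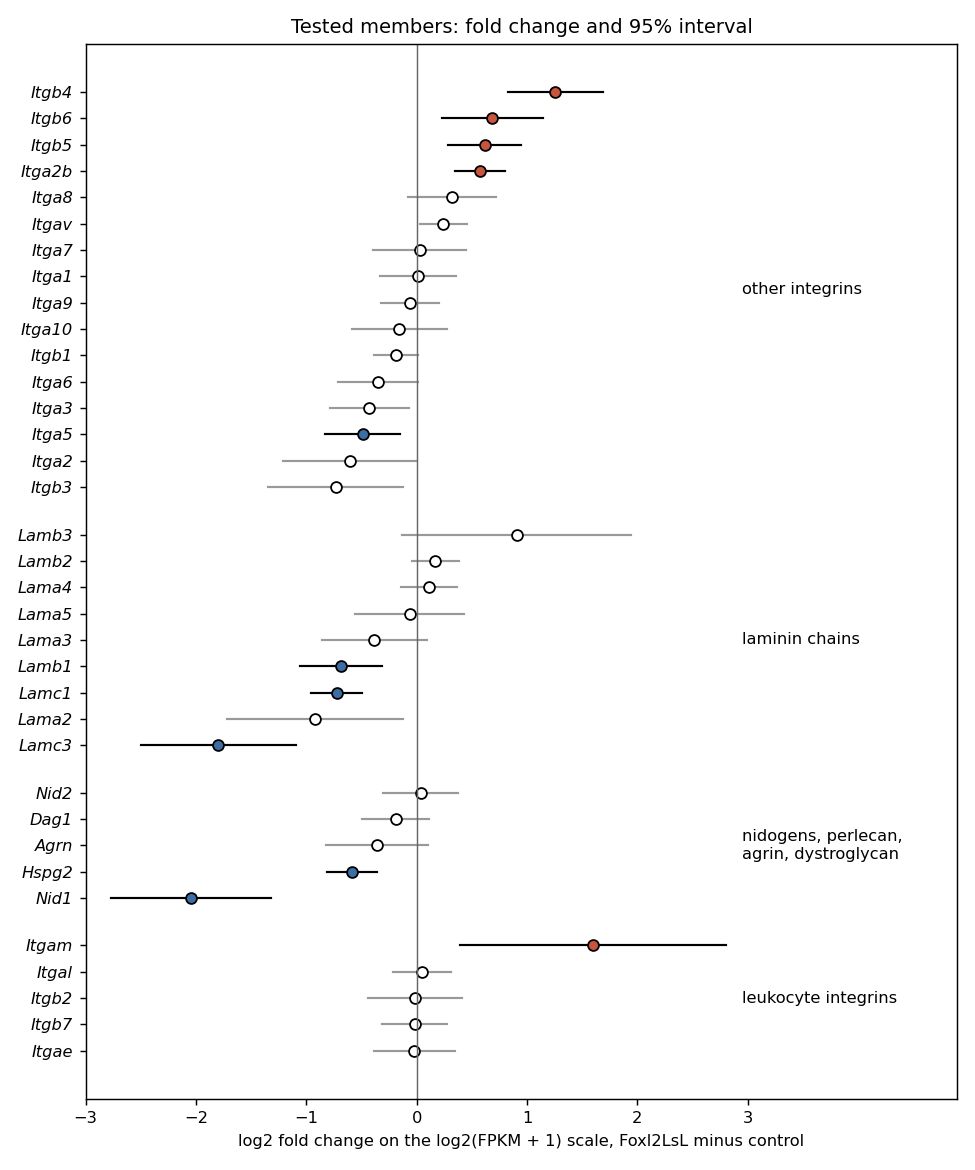
Log2 fold change on the log2(FPKM + 1) scale (x axis, Foxl2LsL minus control) of 35 tested members, each a point with its 95% confidence interval from limma, in 4 sets. Filled points passed an adjusted p of 0.05: Itgb4 at 1.25 and Itgam at 1.60 lie farthest right, and Nid1 at -2.04 and Lamc3 at -1.80 farthest left.

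Nid1 encodes nidogen 1, which binds the short arm of the laminin gamma 1 chain and links it to collagen IV. It lies at chromosome 13, 13437551 to 13512269, plus strand (GENCODE M21 on GRCm38). Its level was 46.3, 88.5 and 140.0 FPKM in controls 1, 2 and 4, and 18.3, 19.9, 20.2 and 19.2 FPKM in Foxl2LsL 1 to 4. The lowest control was thus still above every Foxl2LsL library, while the controls differed widely among themselves. Nid1 fell by 2.04 on the log2(FPKM + 1) scale (SE 0.31; limma, adjusted p 0.00228), and the mean of controls was 4.71 times that of Foxl2LsL. Its relative Nid2, on chromosome 14, was at 7.31, 8.41 and 11.8 FPKM in controls and at 8.80, 9.39, 8.57 and 10.4 FPKM in Foxl2LsL. The groups of Nid2 overlapped and the log2 fold change was 0.04, with a 95% interval from -0.30 to 0.38. Within a library, where scaling cancels, the ratio of Nid1 to Nid2 was 6.34, 10.5 and 11.9 in controls and 2.08, 2.12, 2.36 and 1.86 in Foxl2LsL. The difference in log2 ratio was -2.14 (two-sided exact permutation p 0.0571, the smallest that 3 libraries against 4 allow, and 0.0762 after adjustment over the 4 ratios examined).

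Hspg2 encodes perlecan, the large heparan sulfate proteoglycan that binds nidogen, laminin and growth factors (chromosome 4, 137468769 to 137570630, plus strand, same annotation). It was at 43.3, 37.8 and 37.2 FPKM in controls and at 23.7, 29.6, 24.3 and 26.1 FPKM in Foxl2LsL. No Foxl2LsL library reached a control, and within each group the libraries lay close together. Hspg2 fell by 0.59 (SE 0.10; limma, adjusted p 0.00299). Agrn encodes agrin, a heparan sulfate proteoglycan that joins laminin to dystroglycan. It was at 71.9, 48.1 and 36.2 FPKM in controls and at 36.9 to 40.8 FPKM in Foxl2LsL, so that control 4 lay below every Foxl2LsL library and controls 1 and 2 above. Its log2 fold change of -0.36 missed the threshold (adjusted p 0.185), and without control 4 it was -0.59 (adjusted p 0.0185, limma). Dag1 encodes dystroglycan, a laminin receptor outside the integrin family. It was at 60.1, 47.7 and 39.8 FPKM in controls and at 40.6, 41.0, 42.8 and 45.3 FPKM in Foxl2LsL, again with control 4 lowest of the 7. The log2 fold change of Dag1 was -0.19 (95% interval -0.49 to 0.11; limma, adjusted p 0.274), and -0.33 with an adjusted p of 0.0427 without control 4.

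**Figure D2:**
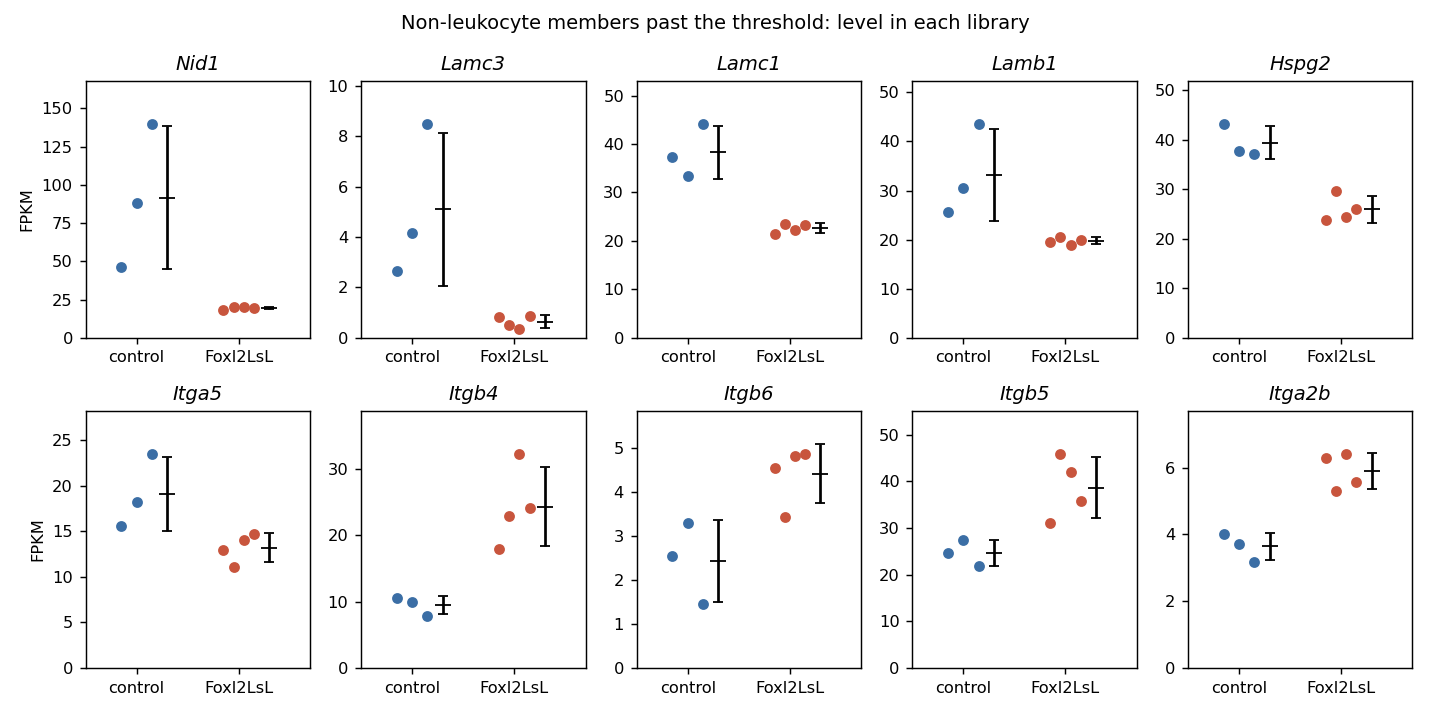
FPKM (y axis, from 0, its own scale in each panel) of the 10 non-leukocyte members past the threshold, 1 point per library, with the mean and SD of each group as a bar beside it (3 controls, 4 Foxl2LsL). Foxl2LsL libraries lie below every control for Nid1, Lamc3, Lamc1, Lamb1, Hspg2 and Itga5 and above for the other 4, and the controls of Nid1 range from 46.3 to 140.0 FPKM.

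Among the laminin chains, beta 1, gamma 1 and gamma 3 were lower in Foxl2LsL. Lamc1, the gamma chain of most laminins (chromosome 1, 153218922 to 153332786, minus strand), was at 37.3, 33.4 and 44.2 FPKM in controls and at 21.4, 23.6, 22.3 and 23.2 FPKM in Foxl2LsL. The groups were well apart, with the Foxl2LsL libraries close to each other. Lamc1 fell by 0.73 (SE 0.10; limma, adjusted p 0.00143). Lamb1, the beta 1 chain found in most laminins of vessels, stroma and embryo (chromosome 12, 31265234 to 31329644, plus strand), was at 25.5, 30.4 and 43.6 FPKM in controls and at 19.6, 20.6, 19.0 and 19.9 FPKM in Foxl2LsL. All 3 controls were above the 4 Foxl2LsL libraries, control 4 by the most. Lamb1 fell by 0.69 (SE 0.16; limma, adjusted p 0.0121), a call that was lost with a replicate block plus correction for GC content and length (-0.62, adjusted p 0.0670).

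Lamc3 encodes the gamma 3 chain, which is found in fewer tissues than gamma 1 (chromosome 2, 31887291 to 31946539, plus strand). It was at 2.65, 4.17 and 8.49 FPKM in controls and at 0.824, 0.514, 0.335 and 0.880 FPKM in Foxl2LsL. The highest Foxl2LsL library was below the lowest control, and Lamc3 reached the filter through the controls alone. It fell by 1.80 (SE 0.30; limma, adjusted p 0.00336), and the ratio of mean FPKM, control over Foxl2LsL, was 7.995.

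Lamb2, which can take the place of beta 1 in a trimer, was the most abundant laminin gene. It was at 43.2, 42.6 and 40.6 FPKM in controls and at 41.4, 52.5, 50.5 and 46.2 FPKM in Foxl2LsL. The groups overlapped through Foxl2LsL 1, and the log2 fold change was 0.17 (95% interval -0.04 to 0.38; limma, adjusted p 0.172). After correction for GC content and length it was 0.25 with an adjusted p of 0.0400. The ratio of Lamb1 to Lamb2 was 0.591, 0.715 and 1.07 in controls and 0.473, 0.393, 0.376 and 0.430 in Foxl2LsL. It was thus lower in every Foxl2LsL library, by 0.88 on the log2 scale (two-sided exact permutation p 0.0571, adjusted 0.0762). Lamb3, the beta chain of the laminin that anchors epithelia under hemidesmosomes, was uneven in controls, with 18.1, 8.92 and 3.16 FPKM, against 13.2 to 19.6 FPKM in Foxl2LsL. Its log2 fold change of 0.91 (SE 0.45; limma, adjusted p 0.141) became 1.43 with an adjusted p of 0.0160 without control 1.

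The alpha chains decide which receptors and tissues a laminin serves. Of the 4 tested, 0 passed the threshold, against 40.6% of the tested genes, and nothing is read from so small a count. Lama5, the alpha chain of laminins under epithelia and in vessels, was at 43.5, 29.6 and 22.4 FPKM in controls and at 23.6, 31.9, 32.1 and 30.8 FPKM in Foxl2LsL. Both the highest and the lowest value belonged to controls. The log2 fold change of Lama5 was -0.06 (95% interval -0.56 to 0.43; limma, adjusted p 0.836). Lama4, the alpha chain of vessels and adipose tissue, was at 9.92, 12.2 and 14.2 FPKM in controls and at 12.5 to 13.2 FPKM in Foxl2LsL, and its log2 fold change was 0.11 (95% interval -0.14 to 0.36). The ratio of Lama4 to Lama5 was 0.228, 0.412 and 0.634 in controls and 0.391 to 0.557 in Foxl2LsL, with overlapping groups (two-sided exact permutation p 0.686).

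Lama2, the alpha chain of muscle and nerve basement membranes, was at 4.13, 8.19 and 15.8 FPKM in controls and at 3.45 to 4.37 FPKM in Foxl2LsL. Control 1 lay inside the Foxl2LsL range and the other controls above it. The log2 fold change of Lama2 was -0.92 (SE 0.34; limma, adjusted p 0.0650), and -1.35 with an adjusted p of 0.00555 without control 1. Lama3, the alpha chain of the anchoring laminin of epithelia, was at 13.2, 8.11 and 6.81 FPKM in controls and at 5.40 to 7.59 FPKM in Foxl2LsL (log2 fold change -0.38, 95% interval -0.86 to 0.09). Lama1, the alpha chain of early embryonic laminin, stayed below the filter, at no more than 0.267 FPKM in any library.

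**Figure D3:**
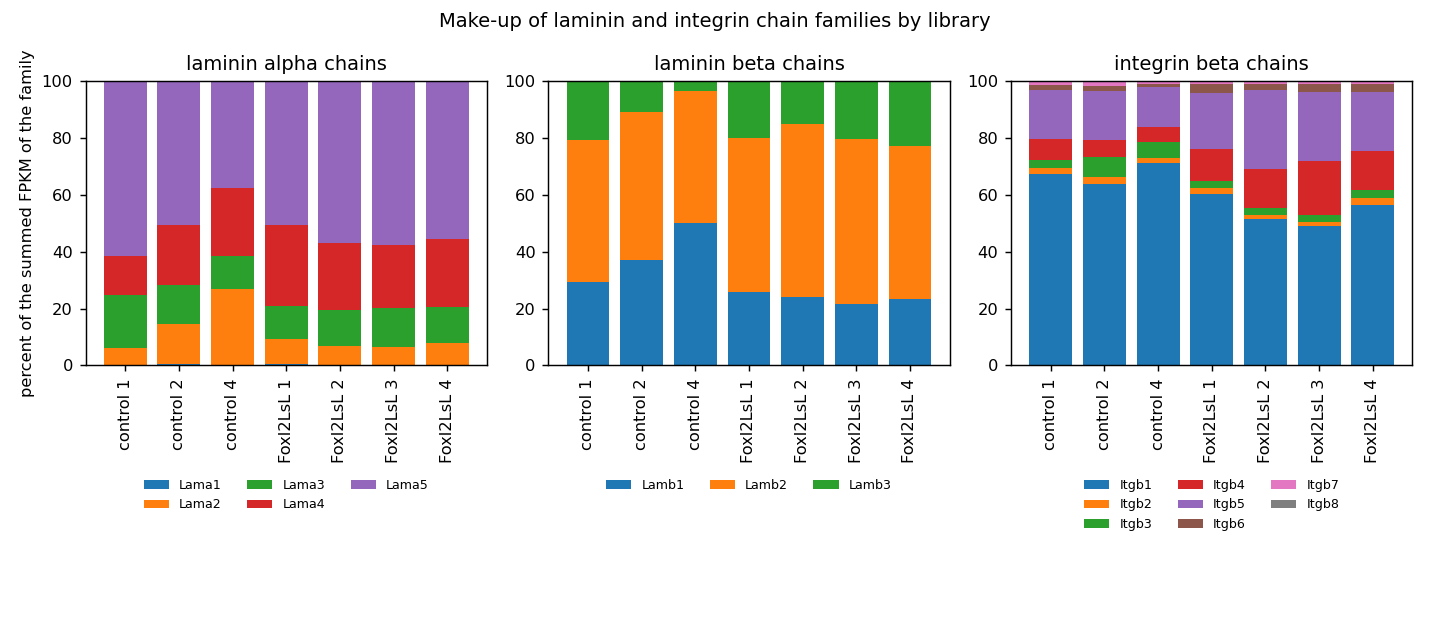
Stacked bars, 1 per library, give each gene's percent (y axis, 0 to 100) of the summed FPKM of the laminin alpha and beta chains and of the integrin beta chains. Lamb1 takes 29.4% to 49.9% of the beta chains in controls and 21.7% to 25.7% in Foxl2LsL, and Itgb1 63.7% to 71.3% and 49.1% to 60.2% of the integrin beta chains.

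Set within their families, the summed beta chains were at 85.4 ± 3.001 FPKM in controls (SD, n = 3) and 83.9 ± 5.08 FPKM in Foxl2LsL (SD, n = 4). Within that sum Lamb1 held 38.8% ± 10.4 in controls and 23.6% ± 1.64 in Foxl2LsL, and Lamb2 49.4% ± 2.76 and 56.7% ± 3.25. Of the alpha chains Lama5 held 49.9% ± 11.9 and 55.2% ± 3.09, and Lama2 15.5% ± 10.5 and 7.38% ± 1.18. These shares describe RNA, not trimers.

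Of the laminin receptor chains Itgb4, Itga6, Itga3, Itga7 and Itgb1, the first passed the threshold. Itgb4, the long-tailed beta chain that pairs with alpha 6 in hemidesmosomes, had the largest rise of the non-leukocyte members (chromosome 11, 115974709 to 116008412, plus strand). It was at 10.5, 10.0 and 7.91 FPKM in controls and at 17.9, 23.0, 32.3 and 24.2 FPKM in Foxl2LsL. Every Foxl2LsL library was above every control. The log2 fold change was 1.25 (SE 0.19; limma, adjusted p 0.00201), and the mean FPKM of Foxl2LsL was 2.57 times that of controls. Its partner Itga6 was at 27.2, 25.9 and 24.1 FPKM in controls and at 23.8, 15.1, 18.5 and 23.8 FPKM in Foxl2LsL. The groups of Itga6 just missed each other, and its log2 fold change of -0.35 (SE 0.16) did not pass (limma, adjusted p 0.110). Itga6 also pairs with the beta 1 chain. The ratio of Itga6 to Itgb4 was 2.60, 2.59 and 3.04 in controls and 1.33, 0.659, 0.571 and 0.982 in Foxl2LsL, lower in each, by 1.71 on the log2 scale (two-sided exact permutation p 0.0571, adjusted 0.0762). Beside these values, the summed simple epithelium markers overlapped between the groups, while 2 of the 7 were higher without overlap. Elf3, an epithelial transcription factor, was at 94.98, 49.1 and 21.4 FPKM in controls and at 322, 97.3, 136 and 259 FPKM in Foxl2LsL (log2 fold change 1.95; limma, adjusted p 0.0275), a call lost with no filter and without control 2 or 4 or Foxl2LsL 1 or 4. Krt18, a simple keratin, was the other higher one (0.80; limma, adjusted p 0.00854). Epcam, an epithelial adhesion gene, averaged 118 ± 54.8 FPKM in controls and 133 ± 24.0 in Foxl2LsL (SD). It was not called (log2 fold change 0.27; limma, adjusted p 0.524). Krt19, Krt8, Cldn4 and Cdh1 were not called either, with log2 fold changes of 0.53, 0.35, 0.23 and -0.08. The part of these markers in the rise of Itgb4 was not tested.

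Itgb1, the partner of most alpha chains, was the most abundant member (chromosome 8, 128685654 to 128733200, plus strand). It was at 96.4, 103 and 110.4 FPKM in controls and at 94.5, 85.4, 84.4 and 98.5 FPKM in Foxl2LsL. The groups overlapped only through Foxl2LsL 4 and control 1, and the log2 fold change was -0.19 (95% interval -0.39 to 0.01; limma, adjusted p 0.112). Itgb1 held 67.5% ± 3.81 of the summed beta chain FPKM in controls and 54.3% ± 5.02 in Foxl2LsL, while the sum itself was 153 ± 9.88 and 167 ± 7.71 FPKM. Itga3, a receptor for epithelial laminins, was at 24.4, 16.8 and 15.2 FPKM in controls and at 12.0 to 14.5 FPKM in Foxl2LsL. Its groups did not overlap, yet its log2 fold change of -0.43 missed the threshold (limma, adjusted p 0.0573), which it passed without control 4 (-0.56, adjusted p 0.0211). Itga7, the laminin receptor of muscle, was at 3.74 to 6.30 FPKM in controls and 3.58 to 5.80 FPKM in Foxl2LsL (log2 fold change 0.03, 95% interval -0.40 to 0.45).

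**Figure D4:**
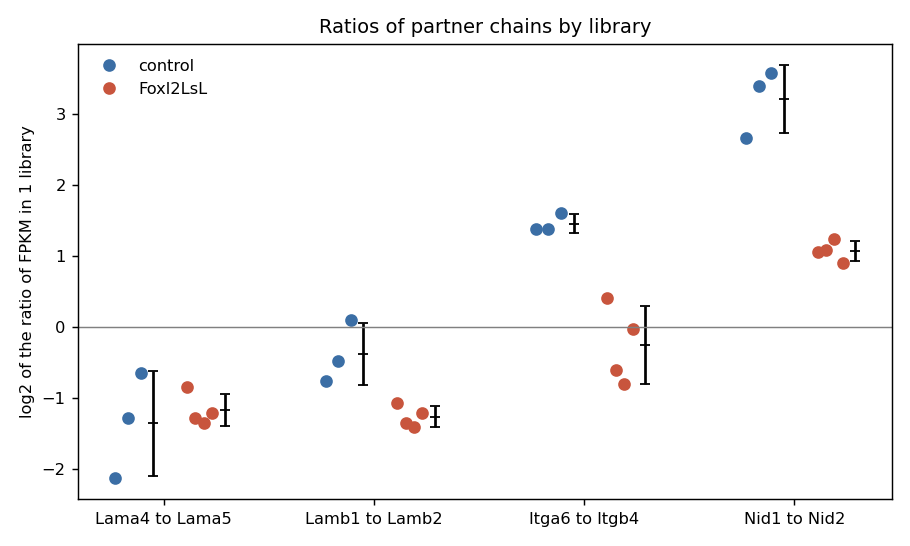
Log2 of the ratio of FPKM of 2 chains within a library (y axis) for 4 pairs, 1 point per library, with the mean and SD of each group beside them. Controls and Foxl2LsL separate for Lamb1 to Lamb2, Itga6 to Itgb4 and Nid1 to Nid2, by -0.88, -1.71 and -2.14 between group means, and overlap for Lama4 to Lama5.

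Of the chains that bind fibronectin, vitronectin and latent TGF-beta, Itgb5 and Itgb6, both beta partners of alpha v, were higher. Itgb5, whose pair with alpha v binds vitronectin (chromosome 16, 33829665 to 33949338, plus strand), was at 24.7, 27.5 and 21.9 FPKM in controls and at 31.0, 45.8, 41.9 and 35.8 FPKM in Foxl2LsL. Each Foxl2LsL library exceeded each control, and Itgb5 rose by 0.62 (SE 0.14; limma, adjusted p 0.0114). Itgb6, an epithelial chain whose pair with alpha v activates latent TGF-beta (chromosome 2, 60598292 to 60722643, minus strand), was at 2.55, 3.31 and 1.46 FPKM in controls and at 4.55, 3.44, 4.83 and 4.87 FPKM in Foxl2LsL. Control 2 came close to Foxl2LsL 2. Itgb6 rose by 0.69 (SE 0.20; limma, adjusted p 0.0267), but lost its call without Foxl2LsL 1, 3 or 4 in turn (adjusted p 0.0586, 0.0698 and 0.0670), with no filter (0.0503) and with the replicate block, alone (0.126) or with the GC and length correction (0.106).

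Itgb3, the beta chain of the platelet and endothelial vitronectin receptors, was at 4.29, 11.4 and 8.85 FPKM in controls and at 3.81 to 4.79 FPKM in Foxl2LsL. Control 1 lay among the Foxl2LsL libraries, and the log2 fold change of -0.73 missed the threshold (limma, adjusted p 0.0573). Without control 1 it was -1.09 (adjusted p 0.00192). Itgav, the alpha chain common to these pairs, was at 8.82, 9.99 and 8.23 FPKM in controls and at 9.71 to 11.8 FPKM in Foxl2LsL. Its log2 fold change of 0.24 had an adjusted p of 0.0691 (limma), and it passed after median centring (0.29, adjusted p 0.0292), quantile normalization, correction for GC content and length, and in limma-voom. Itgb8, another partner of alpha v, stayed below the filter. It was at 0.194 to 0.369 FPKM in controls and 0.092 to 0.177 FPKM in Foxl2LsL, without overlap (limma with no filter, adjusted p 0.0523).

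Itga5 encodes the alpha chain of the main fibronectin receptor (chromosome 15, 103344286 to 103366763, minus strand). It was at 15.6, 18.3 and 23.5 FPKM in controls and at 13.005, 11.1, 14.1 and 14.7 FPKM in Foxl2LsL. Every Foxl2LsL library was below every control, with control 1 close to Foxl2LsL 4. Itga5 fell by 0.49 (SE 0.15; limma, adjusted p 0.0318). That call was lost without control 2 or 4 or without Foxl2LsL 1, 2 or 3 (adjusted p 0.0575 to 0.0742), and also after median centring (0.0532), quantile normalization (0.0538), correction for GC content and length (0.0644), in limma-voom (0.0608), with no filter (0.0512) and with the replicate block plus that correction (0.0714). Itga8, a receptor for nephronectin in smooth muscle and mesenchyme, was at 1.71 to 3.21 FPKM in controls and 2.54 to 3.90 FPKM in Foxl2LsL (log2 fold change 0.32; limma, adjusted p 0.167).

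Itga2b, the alpha chain of the platelet fibrinogen receptor, is a marker of megakaryocytes and platelets (chromosome 11, 102453297 to 102470122, minus strand). It was at 4.01, 3.72 and 3.18 FPKM in controls and at 6.27, 5.30, 6.40 and 5.58 FPKM in Foxl2LsL, without overlap. Itga2b rose by 0.57 (SE 0.10; limma, adjusted p 0.00351), beside a log2 fold change of -0.73 for its partner Itgb3, which was not called. Of the 6 platelet and megakaryocyte markers, Pf4 alone reached the filter. It averaged 3.08 ± 0.325 FPKM in controls and 9.88 ± 1.60 in Foxl2LsL (SD), and its log2 fold change was 1.41 (limma, adjusted p 0.000408). The 6 markers together summed to 3.74 to 4.17 FPKM in controls and 8.97 to 12.3 in Foxl2LsL, and most of that sum was Pf4. Among the others, Gp1ba averaged 0.471 FPKM in controls and 0.640 in Foxl2LsL, and Gp1bb 0.314 and 0.169. Ppbp, Gp9 and Gp6 were at no more than 0.155 FPKM in any library and listed at 0 in at least 1. The part of platelets and megakaryocytes in the rise of Itga2b was not tested.

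The 4 collagen receptor alpha chains were all low. Itga1 was at 1.45 to 2.83 FPKM in controls and 2.07 to 2.21 FPKM in Foxl2LsL (log2 fold change 0.01, 95% interval -0.33 to 0.36). Itga2, the collagen receptor of epithelia and platelets, was at 3.34, 2.03 and 1.14 FPKM in controls and at 0.668 to 1.51 FPKM in Foxl2LsL, and its log2 fold change of -0.60 (limma, adjusted p 0.101) became -0.86 with an adjusted p of 0.0226 without control 4. Itga10, best known from cartilage, was at 1.57 to 3.12 FPKM over the 7 libraries, with a log2 fold change of -0.16 (limma, adjusted p 0.527). Itga11, a fibroblast chain, was at 0.728 to 2.03 FPKM in controls and 0.528 to 0.903 FPKM in Foxl2LsL and fell under the filter. Itga9, which binds tenascin and osteopontin, was at 4.78 to 6.17 FPKM in controls and 4.65 to 6.02 FPKM in Foxl2LsL (log2 fold change -0.06, 95% interval -0.32 to 0.20). Itga4, abundant on leukocytes, was also under the filter, at 0.861, 1.503 and 1.46 FPKM in controls and 0.736, 0.686, 0.642 and 0.666 FPKM in Foxl2LsL. When no filter was applied, Itga4 was lower by 0.42 with an adjusted p of 0.0303 (limma).

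Leukocyte integrins are the beta 2 family, with Itgal, Itgam, Itgax or Itgad as alpha chain, and the beta 7 family of mucosal lymphocytes, with Itgae. Of the 5 that reached the filter, Itgam, the complement receptor chain of neutrophils and macrophages, passed the threshold. It was at 1.60, 1.99 and 1.81 FPKM in controls and at 12.2, 2.93, 4.21 and 18.0 FPKM in Foxl2LsL. All 4 Foxl2LsL libraries were above the controls, 2 of them by far. Its log2 fold change was 1.60 (SE 0.52; limma, adjusted p 0.0416). The call was lost without any 1 of the controls (adjusted p 0.0728 to 0.0934), without Foxl2LsL 1 (0.0929) or 4 (0.0671), in limma-voom (0.0616), with no filter (0.0724) and with the replicate block, alone (0.0604) or with the GC and length correction (0.0579).

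Its beta chain Itgb2 was at 2.59 to 4.14 FPKM in controls and 2.38 to 4.16 FPKM in Foxl2LsL (log2 fold change -0.01, 95% interval -0.44 to 0.41). Itgal was at 1.03 to 1.48 FPKM in controls and 1.14 to 1.40 FPKM in Foxl2LsL, Itgae at 1.38 to 2.15 and 1.18 to 2.17, and Itgb7 at 1.40 to 2.32 and 1.59 to 1.79, each with an absolute log2 fold change of at most 0.05. Itgax and Itgad were under the filter. Itgax was at 1.003 to 1.91 FPKM in controls and 0.579 to 0.974 FPKM in Foxl2LsL, without overlap (limma with no filter, adjusted p 0.112). Itgad was at 0.038 to 0.173 FPKM over the 7 libraries. Of 7 tested leukocyte markers 1 was higher, Csf1r (0.64; limma, adjusted p 0.00691). The list of 10 summed to 134 to 198 FPKM in controls and 172 to 218 FPKM in Foxl2LsL, and most of that sum was Lyz2. The uncalled log2 fold changes were 0.82 for Cd68, 0.40 for Adgre1, 0.06 for Lyz2, 0.02 for Tyrobp, -0.16 for Ptprc and -0.24 for Cd52. Ptprc, the gene of the pan-leukocyte antigen CD45, averaged 3.65 ± 1.41 FPKM in controls and 3.07 ± 0.340 in Foxl2LsL (SD).

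Much of the variation lay among the controls. In 28 of the 36 tested members the SD of log2(FPKM + 1) was larger in controls than in Foxl2LsL, which is 77.8% against 58.8% of the tested genes. The median SD was 0.29 in controls and 0.14 in Foxl2LsL for the members, and 0.14 and 0.12 for the tested genes. Control 1 was the highest and control 4 the lowest control for 12 members. These were Agrn, Dag1, Hspg2, Itga2, Itga2b, Itga3, Itga6, Itgb4, Lama3, Lama5, Lamb2 and Lamb3. Control 4 was the highest and control 1 the lowest for 11, which were Itga1, Itga5, Itga7, Itgae, Itgb1, Lama2, Lama4, Lamb1, Lamc3, Nid1 and Nid2. Of the tested genes, 28.7% and 23.0% had these orders. In the same libraries the summed simple epithelium markers were 1236 FPKM in control 1, 869 in control 2 and 577 in control 4, and the stroma markers 795, 981 and 1090 FPKM. Mesothelium markers also fell in that order, at 138, 114 and 82.1 FPKM. Summed adipocyte (0.173, 7.62 and 73.1), Schwann cell (27.0, 38.2 and 44.5) and endothelium markers (158, 161 and 201) rose in it. Pmp22, at 21.8, 33.0 and 40.6 FPKM, was most of the Schwann cell sum. Single markers did not all follow their sums. Mbp, a Schwann cell marker, fell in that order (3.60, 2.92 and 1.69 FPKM), as did the endothelial marker Cldn5 (20.4, 16.0 and 13.2 FPKM). The part of these cell types in the orders was not tested.

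**Figure D5:**
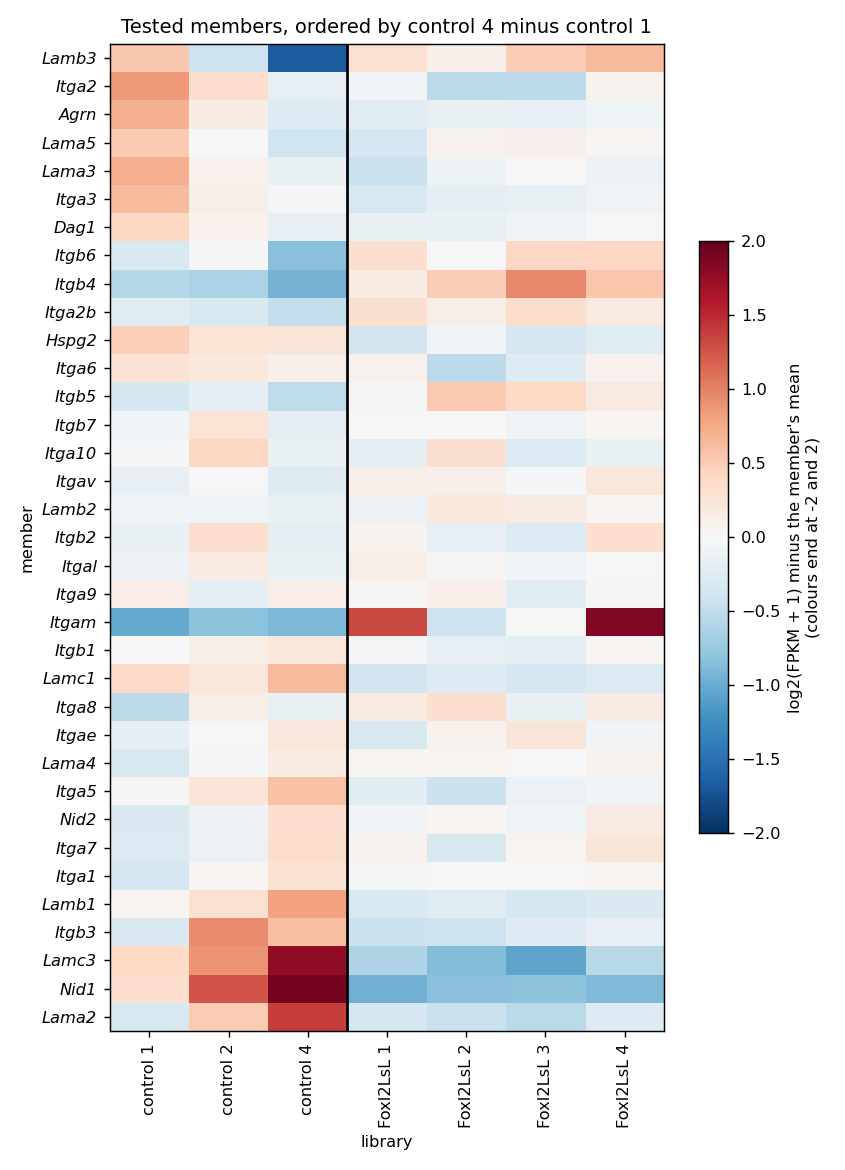
Colour gives log2(FPKM + 1) minus the member's mean over the 7 libraries for 35 tested members (rows), ordered by control 4 minus control 1, with libraries in columns and a line between the groups. Lamb3 lies at the top and Nid1 and Lama2 at the bottom, and for most members the controls vary more than the Foxl2LsL columns (median SD 0.29 against 0.14), while Itgam varies more in Foxl2LsL.

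The other genes of the pathway were read from 5 lists of 93 genes, of which 80 were tested, with 14 higher and 21 lower (limma, adjusted p of 0.05). That is 43.8% called, near the 40.6% of all tested genes (16.7% higher and 23.9% lower). Basement membrane partners of the members were lower in 7 of 17 and higher in 2, with 52.9% called beside 40.6% of the tested genes and a median log2 fold change of -0.49 beside -0.05. Col7a1, the anchoring fibril collagen, averaged 32.5 ± 6.69 FPKM in controls and 0.76 ± 0.11 in Foxl2LsL (SD), with a log2 fold change of -4.23. It reached the filter through the controls alone. Col18a1, the source of endostatin, averaged 78.2 ± 34.9 FPKM in controls and 10.1 ± 1.23 in Foxl2LsL (SD), with a log2 fold change of -2.75. Col4a2, a chain of the main collagen IV trimer, averaged 67.2 ± 25.4 FPKM in controls and 18.4 ± 1.63 in Foxl2LsL (SD), and its partner Col4a1 had a log2 fold change of -1.68, beside -2.04 for Nid1. Higher in this list were Fbln1 and Col4a4, with log2 fold changes of 0.96 and 0.31. The call of Fbln1 was lost with the replicate block, and that of Col4a4 in many alternatives, among them without any 1 of the Foxl2LsL libraries. In the same libraries 6 of the 8 endothelial markers were lower, with log2 fold changes of -1.17 for Cdh5, -1.08 for Eng, -0.68 for Emcn, -0.58 for Kdr, -0.45 for Pecam1 and -0.40 for Tie1, while Cldn5 was higher by 0.82, and their part was not tested.

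Integrin ligands outside the laminins were lower in 6 of 18 and higher in 1 (median -0.48), and the 38.9% called were near the 40.6% of all tested genes. Tnc, which encodes tenascin C, averaged 12.3 ± 3.31 FPKM in controls and 1.56 ± 0.533 in Foxl2LsL (SD), with a log2 fold change of -2.37. Spp1, the gene of osteopontin, averaged 7.10 ± 3.47 FPKM in controls and 0.98 ± 0.14 in Foxl2LsL (SD), with a log2 fold change of -1.92. Like Col7a1, Spp1 reached the filter through the controls alone. Fn1, the gene of fibronectin and ligand of the Itga5 product, had a log2 fold change of -1.66. Postn was the ligand gene that was higher. It averaged 37.9 ± 20.2 FPKM in controls and 90.5 ± 6.94 in Foxl2LsL (SD), with a log2 fold change of 1.38 (limma, adjusted p 0.0143). In the list of integrin adaptors and focal adhesion genes, 4 of 23 were higher and 5 lower (median 0.01), and the 39.1% called were near the 40.6% of all tested genes. Parvb, an adaptor of integrin-linked kinase, had a log2 fold change of -0.98, Tns1, a tensin of muscle and fibroblasts, one of 0.78, and Tln2, a talin that activates integrins, one of -0.65. The call of Tln2 was lost without control 1 or 2 or without Foxl2LsL 1, 3 or 4, in limma-voom, with no filter and with the replicate block.

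The dystroglycan complex and the enzymes that glycosylate it were higher in 3 of 16 and lower in 3 (median -0.04), and the 37.5% called were near the 40.6% of all tested genes. Sspn, which encodes sarcospan, had a log2 fold change of 0.71, Pomt2, an enzyme that starts the mannose chain on dystroglycan, one of -0.50, and Dmd, the gene of dystrophin, one of 0.43, whose call was lost without control 1. In the same libraries the smooth muscle markers Myh11 and Tagln were higher without overlap, with log2 fold changes of 1.01 and 0.77 (limma, adjusted p 0.0107 and 0.00576), while the summed list of 7 overlapped, and their part was not tested. Hemidesmosome and tetraspanin partners were higher in 4 of 6 (16.7% of the tested genes) and lower in 0, with a median of 0.56 beside 1.25 for Itgb4. Cd9, a tetraspanin bound to integrins, averaged 192 ± 6.61 FPKM in controls and 303 ± 27.7 in Foxl2LsL (SD), with a log2 fold change of 0.66. Dst, whose epithelial product binds the Itgb4 tail, averaged 6.80 ± 0.913 and 12.2 ± 2.76 FPKM, with a log2 fold change of 0.74. Lgals3, a galectin that binds integrin glycans, had a log2 fold change of 0.91 with overlapping groups, and its call (limma, adjusted p 0.0480) was lost without control 2 or 4, without any 1 of the Foxl2LsL libraries, without the intensity trend, with no filter and with the replicate block.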

How the data were processed

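Expression was measured in 3 control and 4 Foxl2LsL libraries of whole uterus. RNA was taken with TRIzol and sequenced with Illumina libraries, per the labels' protocols. STAR 2.5.2b, featureCounts 1.5.0-p1 (Subread), DESeq2 1.12.4 and the build mm10 are named in the submitters' processing notes. The annotation, the strand setting and filters are not given in the sources used here, so reads shared by overlapping genes cannot be judged. The authors deposited FPKM, 1 column per library, with a gene length. Columns were matched to samples by their descriptions.

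FPKM times length fell on whole multiples of 1 step per library: 100% of 1653 to 1832 low values (genes up to 1500 bases, up to 20 multiples) lay within 0.1 of a whole number, which gave the fragments. Genes with a mean of at least 1 FPKM were tested on log2(FPKM + 1), which understates changes of low genes, with limma 3.58.1 in R 4.3.3 (intensity trend, Benjamini-Hochberg, threshold 0.05). Tests were checked on simulated data for 13334 genes: 200 of the more abundant genes were given log2 changes of 1.5, of which 185 were recovered with their sign, and 9 unchanged genes were called. Noise was drawn independently for each gene and library, and far fewer genes were changed than were called in the data. Most called members also changed by less than 1.5, so these figures are not error rates of the calls reported here. GC content (99.0% of tested genes) and coordinates came from GENCODE M21 by symbol, and promoters from RefSeq. Full values were given for up to 6 called rises and 6 called falls without overlap, and for Itgb1, Itgb4, Itga6, Lama5, Lamc1, Hspg2 and Dag1. Up to 3 called genes of each list were named, with a log2 fold change and in some cases the group means. Other members and Col4a1, Col4a4, Fbln1, Postn, Dcn, Hoxa10, Hoxa11, Myh11, Tagln, Mbp, Pmp22 and Pf4 were added as context. So were the simple epithelium markers, the called endothelial markers and the tested leukocyte markers. Of the members, 1 is counted but not reported by itself here. The members and lists were chosen with earlier results of these data known. Alternatives changed the scaling, pseudocount (0.1), filter (5, or none), trend, values (limma-voom with TMM on the recovered fragments), GC and length correction, libraries and pairing.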

Additional observations from a re-analysis of the deposited data

Results flagged for a closer look

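In the group of 4 Foxl2LsL libraries, each of the 36 tested members was examined for 1 library far from the others (the gap to its neighbour against the range), which chance gives in about 1 of 20 groups. Lama4 was at 12.5 FPKM in Foxl2LsL 3, below 13.1 to 13.2 FPKM in the other libraries of its group. Lama5 was at 23.6 FPKM in Foxl2LsL 1, below 30.8 to 32.1 FPKM in the other libraries of its group.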

How the results depend on the processing

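Of the 11 called members, 7 kept direction and call under all 18 alternatives or all in which they were fitted (Nid1, Lamc3, Lamc1, Hspg2, Itgb4, Itgb5 and Itga2b), and 0 changed direction. The 10 non-leukocyte calls became 8 to 13 when 1 library was left out. The labels do not say that the replicate numbers pair the groups, so the numbers were not taken as pairs. Same-numbered libraries deviated with correlations of 0.228, -0.0306 and -0.112, which cannot decide whether they were paired. With the replicate block 3243 tested genes passed against 5409, 9 non-leukocyte members against 10 and 23 other pathway genes against 35. Leaving out Foxl2LsL 3, the library with no control of its number, gave 3975 genes without a block. With the block plus the GC and length correction 3317 genes passed. The leukocyte count was 0 to 1 when 1 library was left out and 0 with no filter, in limma-voom and with either block. The log2 ratio of Lama4 to Lama5, 0.18, was -0.20 to 0.53 when 1 library was left out, and negative without control 1. For each of these, the cause was not tested. Members that changed direction were all uncalled there and in the comparison as reported. With 1 library left out, log2 fold changes ran from -0.16 to 0.16 for Itga1, -0.29 to 0.0052 for Itga10, -0.10 to 0.21 for Itga7, -0.16 to 0.0015 for Itga9, -0.12 to 0.085 for Itgae, -0.13 to 0.15 for Itgb2, -0.12 to 0.12 for Itgb7, -0.015 to 0.22 for Lama4, -0.28 to 0.18 for Lama5 and -0.096 to 0.21 for Nid2. Itga1 was -0.0029 at a common sum. Itga9 was 0.00083 in limma-voom, 0.0015 with the block and 0.037 with block and correction. Itgae was 0.029 after median centring, 0.011 after quantile normalization, 0.019 in limma-voom and 0.028 after the correction. In that order, Itgb2 was 0.039, 0.047, 0.047 and 0.047, with 0.075 and 0.14 under the blocks, and Itgb7 was 0.033, 0.025, 0.048 and 0.072, with 0.0043 and 0.098 under the blocks. Lama5 was 0.0086 in limma-voom. With 3 libraries against 4, the exact test of a ratio cannot fall below 0.0571, and members under 1 FPKM on average were tested only without the filter.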

Other observations

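Col17a1, a transmembrane collagen of the hemidesmosome beside the Itgb4 product, was under the filter, at 0.237 ± 0.0907 FPKM in controls (SD, n = 3) and 0.832 ± 0.341 FPKM in Foxl2LsL (SD, n = 4), without overlap between the groups. Krt5, the basal keratin tied to hemidesmosomes in stratified epithelia, was at 0.0447 ± 0.0122 and 1.38 ± 0.935 FPKM in the same groups, also without overlap. Both genes were chosen after their values were seen. Krt14, the usual partner of Krt5, was at 0.240 ± 0.201 and 0.136 ± 0.0861 FPKM, with overlapping groups.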
